A study of Saccharomyces cerevisiae with 2 samples.

Results

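The 27 spots described here carry open reading frames (ORFs) of the Ty retrotransposons of Saccharomyces cerevisiae, 12 for Gag (TYA) and 15 for Pol (TYB), out of 6207 ORF spots on the array. They were chosen by name: 2 spots are deposited as YFL-TYA and YFL-TYB, and 25 of a further 27 listed Ty ORFs had a spot. No row was found for the Ty4 ORFs YHL009W-A and YHL009W-B. The set was proposed with earlier results of these data in view, so the ratios of the spots are given as a description and without a test. RNA of a sho1 mutant of the BY4741 background, grown at 24 °C and treated with Zymolyase (0.8 units per ml) for 3 hours, was hybridised with RNA of the untreated sho1 mutant on 2 two-colour arrays. Zymolyase is a mixture of enzymes that break down wall glucan, and Sho1 is a membrane sensor protein of the high-osmolarity glycerol pathway. Both channels carry the sho1 mutation, and no strain with an intact SHO1 gene was analysed here. The treated RNA carried Cy3 on array 1 and Cy5 on array 2.

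Ty elements are retrotransposons flanked by long terminal repeats (LTRs) that copy themselves through an RNA intermediate inside virus-like particles. A full-length transcript starts in the left LTR and carries both reading frames: Gag, the capsid protein, is translated directly, and Pol, which supplies protease, integrase and reverse transcriptase, is made as a Gag-Pol fusion by ribosomal frameshifting on the same RNA. Ty1 and Ty2 are close relatives and the most numerous families in laboratory strains, while Ty4 is rare. Ty1 transcription depends on Ste12 and Tec1, factors of the filamentation pathway, some of whose kinases are shared with the Sho1 branch. The copies of a family are nearly identical in sequence, so a spot reports labelled cDNA from many copies at once, and the values below are not independent measurements of single elements.

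Array 1 gave a ratio for 5552 ORFs and array 2 for 5347, and 5311 had a ratio on both. The deposited values are log2 ratios, with medians of -0.03 and -0.02 and SDs over ORFs of 0.22 and 0.20. No source states which channel was the numerator, and across ORFs the columns had a Pearson r of -0.012 and a Spearman rho of -0.26. Here the columns are read as deposited, which treats both as treated over untreated. On that reading a positive value means more RNA in treated cells, but no label shows that the reading is right. The other reading, in which both columns hold Cy5 over Cy3 and array 1 must be turned, is given beside it. One free-text comment, on the untreated channel of array 2, names a hog1 mutant where all other labels say sho1. SHO1 itself had no value on either array, spot intensities were not used here, and no label tells if separate cultures were hybridised.

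The Gag spots of Ty1 and Ty2 had positive ratios on both arrays. All 11 Gag spots measured on both were above 0 on both, with a median of the mean log2 ratio of 0.49, or 1.41-fold, against -0.03 for all ORFs. Of all 5311 ORFs, 14% were above 0 on both arrays. Among the Ty1 Gag spots, YBR012W-A had 0.69 on array 1 and 0.48 on array 2, a mean of 0.59 ± 0.15 (SD, n = 2 arrays). YMR046C had 0.63 and 0.36, and YML040W had 0.45 and 0.55, so neither array held the higher value throughout. YJR026W had 0.44 and 0.36. The neighbouring Ty1 element's Gag spot, YJR028W, had 0.38 on both arrays. The remaining Ty1 Gag spots had the lower value on array 1: YAR010C had 0.24 and 0.61, YBL005W-A 0.26 and 0.44, and YMR051C 0.24 and 0.47.

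The Ty2 Gag spots lay within or just above the range of the Ty1 Gag means. YBL101W-A, named YBL100W-A in the R64 annotation, had 0.61 on array 1 and 0.67 on array 2, with the highest mean of the Ty spots at 0.64 ± 0.04 (SD, n = 2). YCL020W, the other Ty2 Gag spot, had 0.49 and 0.50. YFL-TYA, whose deposited name gives a chromosome arm but no family, had 0.69 and 0.47. On array 2 the 11 Gag ratios ran from 0.36 to 0.67 with an SD of 0.10, less than the SD of 0.20 over all ORFs, and on array 1 these 11 ran from 0.24 to 0.69 with an SD of 0.18. On array 2 the lowest of them, YMR046C, ranked 134 from the top of 5347 ORFs. On array 1 the lowest, YMR051C, ranked 573 of 5552.

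**Figure D1:**
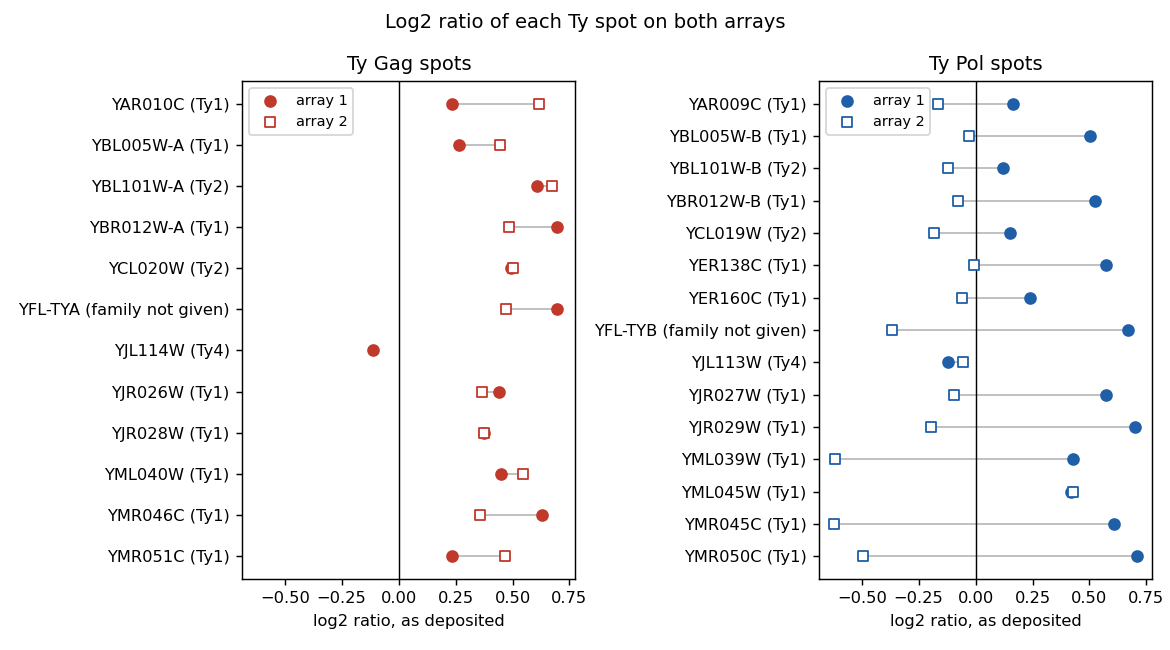
Log2 ratio (x axis) of each Ty spot (y axis, with its family), Gag on the left and Pol on the right; filled circles are array 1, open squares array 2, and a line joins the values of 1 spot. All 11 Gag spots measured on both arrays lie right of 0 on both, while 13 of 15 Pol spots lie right of 0 on array 1 and left of 0 on array 2.

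The Pol spots had positive ratios on array 1 and negative ones on array 2. This held for 13 of 15 spots, a sign pattern found in 29.2% of all ORFs. The median was 0.50 on array 1, or 1.42-fold, and -0.12 on array 2, or 0.92-fold. On array 1 the 15 values ran from -0.12 to 0.71, and the Gag and Pol ranges overlapped. On array 2 they ran from -0.62 to 0.43, and only YML045W, at 0.43, reached into the range of the Gag spots.

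The Ty1 Pol spots differed widely among themselves on array 2. YMR045C had 0.61 on array 1 and -0.62 on array 2, YML039W had 0.43 and -0.62 and YMR050C had 0.71 and -0.49. On array 2 these were within the lowest 1% of the ORFs, at percentiles 0.252, 0.271 and 0.870. YJR029W had 0.70 and -0.20, and YAR009C, annotated as a shorter ORF in R64, had 0.17 and -0.16. Nearer to 0 on array 2 were YJR027W (0.57 and -0.09), YBR012W-B (0.52 and -0.08), YER160C (0.24 and -0.06), YBL005W-B (0.50 and -0.03) and YER138C (0.57 and -0.01). The 11 Ty1 Pol spots had an SD of 0.31 on array 2 against 0.092 for the 8 Ty1 Gag spots, while on array 1 both SDs were 0.17. Without YML045W the SD of the Ty1 Pol spots was 0.24 on array 2 and 0.18 on array 1. A wide spread on array 2 was also found among other long ORFs. Other ORFs over 4500 bp had SDs of 0.30 on array 1 and 0.41 on array 2. Those from 1000 to 2000 bp had SDs of 0.21 and 0.18. These classes hold different genes and not copies of 1 family, so their SDs are not a like measure.

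YML045W was the exception among the Pol spots of Ty1. It had 0.42 on array 1 and 0.43 on array 2, a mean of 0.42 ± 0.005 (SD, n = 2), within the range of the Gag means from 0.35 to 0.64. R64 annotates YML045W over 5269 bp, the same length as 8 other Pol ORFs of the set, and which stretch of each ORF was spotted is not stated in any label. Chromosome XIII carries YML045W as well as the 3 Pol ORFs with the lowest ratios on array 2.

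The Ty2 Pol spots and YFL-TYB kept the same pattern of signs with other sizes, and the Ty4 spot did not. The Ty2 Pol spots YBL101W-B (0.12 and -0.12) and YCL019W (0.15 and -0.18) lay below all 11 Ty1 Pol spots on array 1, the nearest of which was YAR009C at 0.17. YFL-TYB had 0.67 on array 1 and -0.36 on array 2. The Ty4 Pol spot YJL113W had -0.12 and -0.06, below 0 on both arrays, as were 26.8% of all ORFs. The Ty4 Gag spot YJL114W had -0.11 on array 1 and no value on array 2. Neither Ty4 spot had the positive ratios on array 1 that the other 25 Ty spots showed.

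Gag and Pol spots of the same element can be set beside each other for 12 elements. On array 1 the Gag spot was higher in 8 and lower in 4, with a median difference, Gag minus Pol, of 0.02 and a range from -0.47 to 0.49 on the log2 scale. On array 2 the Gag spot was higher in all 11 elements measured, with a median difference of 0.78 and a range from 0.46 to 1.16. The largest difference on array 2 was that of YML040W over YML039W, and the smallest that of YJR026W over YJR027W. The Ty2 elements had differences on array 1 too, 0.49 for YBL101W-A over YBL101W-B and 0.34 for YCL020W over YCL019W. In R64 the Gag ORF lies inside the Gag-Pol ORF in 9 of these 12 elements and beside it in 2, and 1 pair, of the YFL spots, could not be matched.

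**Figure D2:**
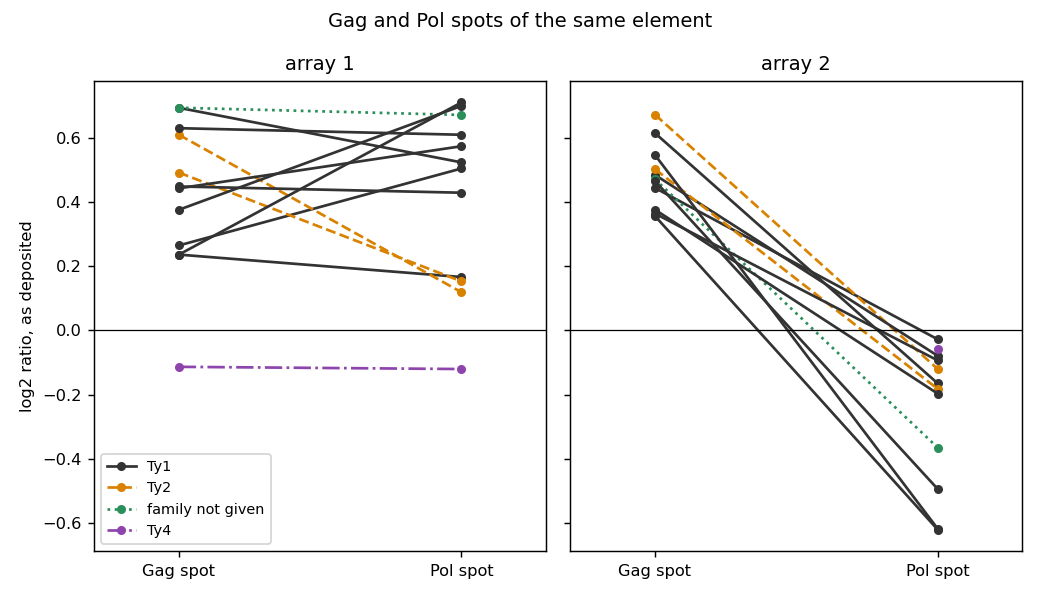
Log2 ratio (y axis) of the Gag and the Pol spot of each of 12 elements, joined by a line, on array 1 (left) and array 2 (right); colour and line style give the family, and the Ty4 Gag spot has no value on array 2. On array 1 the lines run both ways, and on array 2 all 11 fall from Gag to Pol.

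The reading of the columns decides which spot class had the median further from 0. Whether either class follows the treatment was not tested. As deposited, the 11 Gag spots measured on both arrays were higher in treated RNA with either dye. In the same reading, 13 of 15 Pol spots were higher in the Cy3 channel on both arrays. With array 1 turned, 13 of 15 Pol spots had a mean below 0 (YML045W had 0.003 and YJL113W 0.03) and the Pol median was -0.29. The median of the 11 Gag spots was then 0.005, and they would be higher in the Cy5 channel on both arrays. The Gag spot had the higher mean in all 11 elements under either reading, by a median of 0.42 as deposited and 0.36 with array 1 turned. Both readings take array 2 with the same sign, so they are not separate results. On array 2 the median difference was 0.78 over 11 elements, and on array 1 it was 0.02 over 12. Dye and treatment cannot be told apart within a single array.

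**Figure D3:**
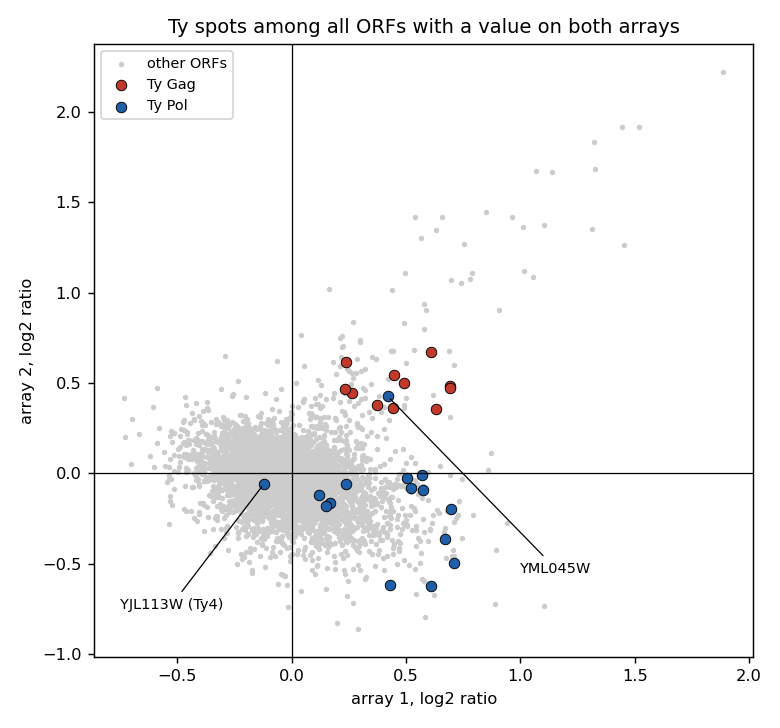
Log2 ratio on array 1 (x axis) against array 2 (y axis) for the 5311 ORFs measured on both. Grey points are ORFs outside the set, including the Ty1 ORF YHR214C-B, red points the 11 Gag spots and blue points the 15 Pol spots. The Gag spots and YML045W lie in the upper right, 13 Pol spots in the lower right, and the Ty4 spot YJL113W near the centre.

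In limma's moderated test over all 5311 ORFs with Benjamini-Hochberg adjustment, 41 ORFs were called higher, 0.772%, and 0 lower, where 59 had an unadjusted p under 0.05. Of the Ty spots, 3 were among the calls, the Gag spots YBL101W-A, YBR012W-A and YFL-TYA, and no Pol spot was. Since the set was proposed from these ratios, nothing is read from that count. With array 1 turned, 0 ORFs were called at an adjusted p of 0.05, with 499 at an unadjusted p under 0.05. Of these, 316 were lower, 5.95% of all ORFs, and 5 of the 316 were Pol spots.

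Length and the Pol pattern were set side by side, because Gag-Pol ORFs are among the longest on the array. The other ORFs over 4500 bp, including the Ty1 ORF YHR214C-B, had medians of 0.05 and 0.03 on arrays 1 and 2. Of these, 28.4% of the 102 measured on both were above 0 on array 1 and below 0 on array 2. Among the 1841 other ORFs of up to 1000 bp that share was 28.1%. The share above 0 on both arrays was 29.4% in the long class and 14.3% in the short one. The Gag ORFs with an R64 match in Ty1 and Ty2 were 1317 or 1323 bp long, and other ORFs from 1000 to 2000 bp had medians of -0.04 and -0.03, with 11.0% above 0 on both arrays. The part of base composition, of cross-hybridisation between copies and of dye in these ratios was not tested.

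Host genes that act on Ty elements were taken from 7 lists by function, with 84 genes, of which 75 were measured on both arrays. In the same limma fit, with columns as deposited, 2 of the 75 were called higher, against 0.772% of all ORFs, and 0 lower. At an unadjusted p under 0.05 there were 4 higher, SPT16, TFC1, DHH1 and RTT107, and 0 lower. Over all 5311 ORFs there were 132 higher and 59 lower. That threshold was passed by 11 of the 75 with array 1 turned, against 499 of the 5311 ORFs. As deposited, the median log2 ratio of the 75 was -0.04 against -0.03 for all ORFs. Of the 75 genes, 7 were above 0 on both arrays (14% of all ORFs were) and 21 below 0 on both (26.8% of all ORFs). A further 32 were above 0 on array 1 and below 0 on array 2 (29.2% of all ORFs), and 15 had the opposite signs (30.1% of all ORFs).

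The genes that turn on Ty1 transcription were all short of the test's threshold, which 0.772% of all ORFs passed. With so low a share, the lack of a call in a short list is not a result about its genes. The 8 measured transcription factors had a median of 0.003 on array 1 and -0.20 on array 2, with 4 below 0 on both arrays and 4 above 0 on array 1 only. STE12, the factor of mating and filamentation, had -0.09 on array 1 and -0.16 on array 2. TEC1, its partner at filamentation genes and Ty1, had 0.16 and -0.25. TEA1, an activator that binds the Ty1 enhancer region, had -0.15 and -0.11, and GCR1, the activator of glycolytic genes, had 0.10 and -0.38. The 12 measured SAGA and Swi/Snf coactivator genes had a median of -0.05 and none past the test. NGG1, of the SAGA acetyltransferase module, had 0.19 and -0.49, its catalytic partner GCN5 had 0.43 and -0.14, and SWI3, a Swi/Snf subunit, had -0.18 and 0.12.

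Genes of the kinase cascade above Ste12 and Tec1 had no member past the test either, beside 0.772% of all ORFs. The 11 measured genes had a median of -0.02. KSS1, the filamentation kinase, had -0.47 on array 1 and 0.42 on array 2, a sign pattern found in 30.1% of all ORFs. FUS3, the mating kinase, had 0.07 and -0.02, the kinase kinase STE7 had 0.21 and -0.21, and the GTPase CDC42 had 0.35 and -0.16.

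The chromatin list and the Pol III list held the host genes called higher with columns as deposited. SPT16, a subunit of the histone chaperone FACT, had 0.71 on array 1 and 0.60 on array 2, a mean of 0.66 ± 0.08 (SD, n = 2; limma adjusted p = 0.00592), and the other 10 measured chromatin genes did not pass. Of these, SPT21, a regulator of histone genes, had 0.31 and -0.24, and RTT106, a histone chaperone that represses histone genes, had 0.16 and -0.16. TFC1, a subunit of the factor TFIIIC at the tRNA genes beside which Ty elements insert, had 0.50 and 0.61, a mean of 0.55 ± 0.08 (SD, n = 2; limma adjusted p = 0.0359). With array 1 turned neither gene passed, and with the arrays scaled to one spread TFC1 did not. The other 12 measured genes of the Pol III and integration list did not pass. RPC40, the polymerase subunit bound by the Ty1 integrase, had -0.03 and 0.02. BDP1, a TFIIIB subunit, had 0.62 and -0.67, and TFC3, another TFIIIC subunit, had 0.52 and -0.23.

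No gene of Ty RNA turnover or of restriction passed, where 0.772% of all ORFs did. The 7 measured RNA decay genes had a median of -0.05. XRN1, the cytoplasmic exonuclease, had 0.08 on array 1 and -0.45 on array 2, and DBR1, the debranching enzyme, had no value. DHH1, a decapping helicase, had 0.87 and 0.11, a mean of 0.49 (limma adjusted p = 0.255), and passed only with centred columns. NMD2, of nonsense-mediated decay, had 0.12 and -0.16, and LSM1, of the decapping machinery, had -0.09 and -0.14. The 13 measured restriction genes had a median of -0.06. RTT107, a scaffold of replication repair, had 0.29 and 0.28, with a limma adjusted p of 1.00, RTT103, a transcription termination factor, had 0.24 and -0.37, and RTT105 had -0.20 and 0.29.

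**Figure D4:**
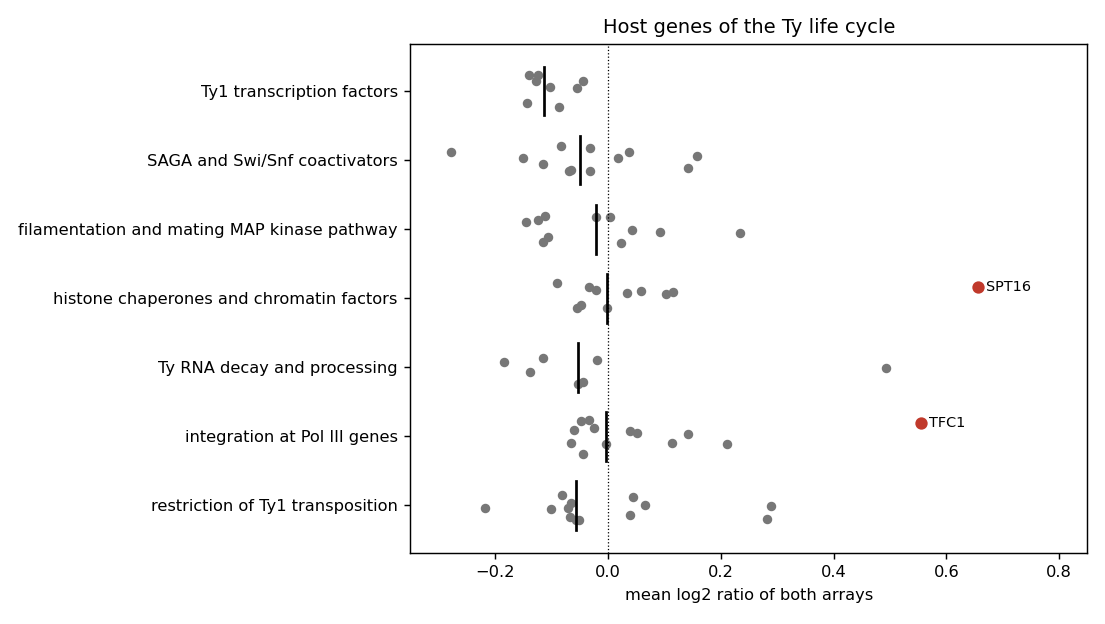
Mean log2 ratio over both arrays (x axis) of the 75 host genes measured on both, by list (y axis); each point is a gene, the black bar the median of its list, and red points passed limma's test. Only SPT16 and TFC1 passed, and the list medians lie between -0.11 and -0.002.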

How the data were processed

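Log2 ratios from 2 two-colour arrays were used, as deposited by the authors; that they are log2 was found from the values, and the sources used here give no scanner, background correction, normalization or numerator. Of 6209 rows, 2 control rows were left out. ORF names were matched to RefSeq's R64 annotation, of which no coordinates are printed because the array's build is not given; 5654 ORFs matched directly. Gag or Pol came from the deposited name or the known ORF, and the family from general knowledge of Ty ORF names. The members and lists were chosen with earlier results of these data known. Sequences are not printed because none were used here.

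The mean ratio of each ORF with both values was set against 0 in a two-sided test by limma 3.58.1, run in R 4.3.3 (intercept-only lmFit, then eBayes, 1 residual and 23.5 prior degrees of freedom), with Benjamini-Hochberg adjustment over 5311 ORFs and a threshold of 0.05. Since nothing says that the arrays hold separate cultures, the p-values cover array spread alone, perhaps a technical one. The fit was tested on simulated data. Host genes named were 7 fixed ones, up to 3 per list by the smaller absolute ratio of the 2 arrays, and all that passed. Alternatives were centring, scaling, turning array 1, single arrays, spots with 1 value and other variance models. Python 3.11.15, pandas 2.3.3, scipy 1.17.1 and matplotlib 3.10.9 made tables and plots.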

Additional observations from a re-analysis of the deposited data

How the results depend on the processing

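The Gag median of 0.493 was 0.521 with centred columns, 0.512 with scaled ones, 0.459 with spots of 1 value included and also with Ty1 and Ty2 spots only, and 0.00526 with array 1 turned. Single arrays gave 0.448 to 0.471. The Pol median of 0.108 turned to -0.29 with array 1 turned and ran from -0.12 (array 2) to 0.504 (array 1) over single arrays. The median of all Ty spots, 0.267, turned to -0.128 with array 1 turned and ran from -0.018 to 0.47 over single arrays. Limma's calls went from 41 to 0 over all ORFs, from 2 to 0 among host genes and from 3 to 0 among Ty spots with array 1 turned. With scaled columns 31 of all 5311 ORFs passed, among them 1 host gene and 1 Ty spot. With centred ones 61 of the 5311 passed, among them 3 host genes and 6 Ty spots. The causes were not tested, beyond the sign that turning itself changes. The restriction to Ty1 and Ty2 and the Pol median without YML045W (0.0986) were chosen after seeing the data. Each ratio already pairs treated with untreated RNA on 1 array, and no further pairing was possible because the arrays form 1 group. The number of arrays limits precision, and signal over background is unknown.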

Other observations

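Ty ORFs outside the named set were looked at after its values were seen. YHR214C-B, a Ty1 Gag-Pol ORF, had a log2 ratio of 0.45 on array 1 and -0.06 on array 2, the signs of the 13 Pol spots. YIL082W, a Ty3 Gag ORF, had 0.36 on array 2 and no value on array 1, and the Ty3 Gag-Pol ORF YIL082W-A had no value on either.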
